A study of Saposhnikovia divaricata with 9 samples.

Results

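Saposhnikovia divaricata is a herb of the carrot family whose roots are used in traditional medicine. In its leaves, 44 of the 63753 transcript clusters in the deposited table stood high in the group of libraries coded C, lower in M and lower again in L. A transcript cluster is the unit the table gives in place of a gene, and it carries an identifier but no gene name, description or sequence in the table used here. The 44 were chosen on their FPKM (fragment numbers divided by cluster length and by the mapped fragments of each library). The lowest C value had to be at least 10 FPKM and at least 2 times the highest M value plus 1. The lowest M value had to be at least 2 times the highest L value plus 1, and the C mean had to lie below 1000 FPKM. All 9 libraries entered this choice, so the levels of the 44 clusters and the distance between the groups are given as a description of what was chosen.

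The series' design text describes plants aged 48 days, either untreated controls or kept at 4 °C for 6 h or 48 h, with 3 libraries in each of the 3 groups. The labels name the groups only C, M and L without saying which is the control and which had the shorter or longer cold, so only the codes are used here. The order C, M, L is therefore an order of levels and not a time course. The labels give leaves as the tissue and poly(A) RNA as the molecule, with no cultivar, growth conditions or pooling, and do not say whether replicates are separate plants. Marker genes of leaf tissue could not be looked up without gene names.

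As background, the amount of a messenger RNA in a leaf reflects the balance between its synthesis and its decay. Plants moved into the cold are known to change both, with transcripts of cold-protective proteins rising and many transcripts of growth and photosynthesis declining. Which of these functions the 44 clusters serve cannot be read from their identifiers.

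C replicate 2 stood somewhat apart within its group, with rank correlations of 0.858 and 0.869 to the other C libraries, which correlated at 0.943 with each other. Without it 83 clusters met the rule. Without M replicate 2, whose rank correlations to the other M libraries were 0.923 and 0.901, 88 did. The rule reads the lowest and highest library of a group, so leaving one out can hardly remove a cluster. The libraries summed to between 863749 and 932785 FPKM, and the number of fragments behind a value is unknown.

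The first step was the narrower gate in FPKM as deposited. Of 9552 clusters at the C level of the rule (lowest C value at least 10 FPKM, C mean below 1000 FPKM), 199 also met the step from C to M, or 2.08%, while 1611 met the step from M to L, or 16.9%. The 44 clusters are those meeting both, 22.1% of the first set and 2.73% of the second. Both steps read the same M libraries, so nothing is drawn from this overlap. As deposited, the median log2 fold change of all clusters past a filter on low values was -0.03 in M against C. In L against M it was -0.55. The shares meeting each step were not compared after scaling. The limit on the lowest C value did not bind, since a minimum of 5 FPKM gave the same 44 clusters.

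The thresholds cut through a continuous range. The cluster closest inside the C-to-M limit held 150.36, 170.53 and 113.62 FPKM in C and 38.65, 55.36 and 32.85 FPKM in M. The closest outside held 23.01, 21.44 and 27.74 FPKM in C and 8.77, 9.74 and 7.99 FPKM in M. At the M-to-L limit, the closest inside held 23.34, 23.98 and 19.07 FPKM in M and 7.07, 6.73 and 8.46 FPKM in L. The closest outside held 14.6, 16.7 and 8.41 FPKM in M and 3.28, 1.39 and 3.32 FPKM in L. A single cluster met every condition but the limit on the C mean. It stood at 1577.06, 1201.38 and 1629.36 FPKM in C, 399.95, 272.75 and 405.91 FPKM in M and 94.84, 32.56 and 120.99 FPKM in L.

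**Figure D1:**
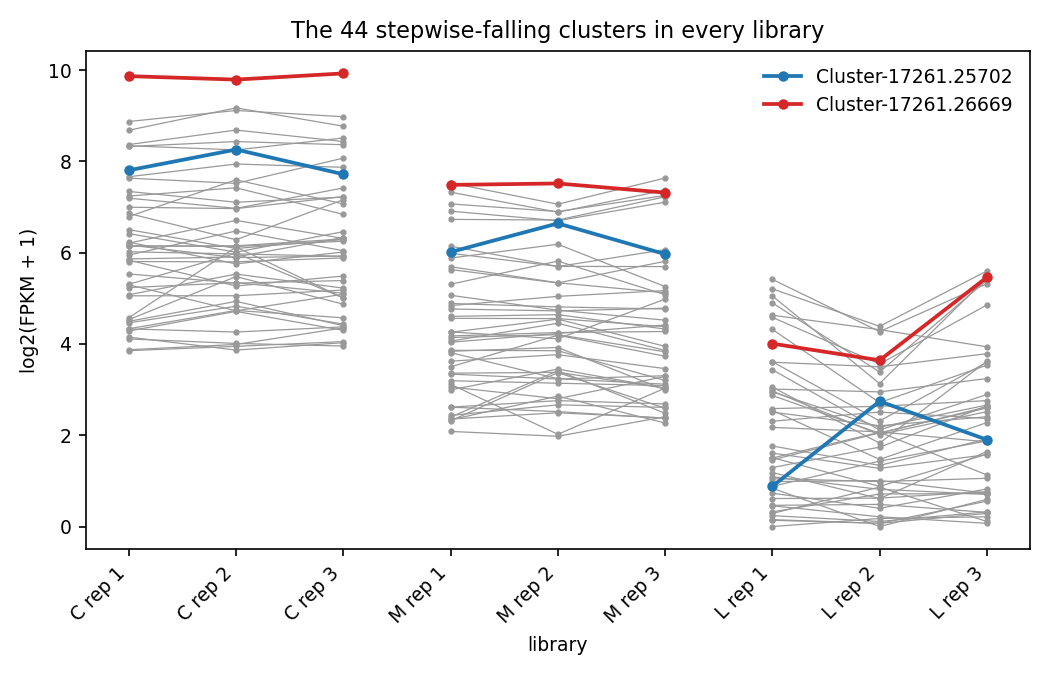
FPKM of the 44 clusters on a log2(FPKM + 1) scale (vertical axis) in each of the 9 libraries (horizontal axis); each grey line joins the values of a cluster within a group, and the coloured lines are the cluster with the smallest ratio of L to C and the cluster with the highest C mean. The median cluster lay between 63.04 and 66.795 FPKM in the C libraries, between 16.395 and 17.91 in M and between 2.225 and 3.315 in L.

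Across the 44 clusters the C means ran from 14.5 to 932 FPKM with a median of 64.5. The M means ran from 3.49 to 173 FPKM with a median of 17.8, and the L means from 0.0967 to 34.5 FPKM with a median of 3.10. A median of 28.4% of the C level was left in M (range 13.9% to 42.6%) and 4.21% in L (range 0.301% to 12.8%). In absolute terms more FPKM were lost between C and M than between M and L in all 44 clusters. The rule fixes this, because a C level of at least 2 times M leaves less in M than was lost before it. In M, 27 clusters were still at 10 FPKM or more in every library. In L, 9 had a mean of at least 10 FPKM, 13 had a mean below 1 FPKM and 11 were below 1 FPKM in every library. None was listed at 0 in every L library, and 2 were listed at 0 in one of them.

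The 44 clusters together took 0.609%, 0.668% and 0.644% of all FPKM in C replicates 1 to 3. They took 0.190%, 0.181% and 0.194% in M and 0.0381%, 0.0197% and 0.0436% in L. The group means were 0.641% ± 0.0297, 0.188% ± 0.00663 and 0.0338% ± 0.0125 (SD, n = 3). The M libraries lay close together, and L replicate 2 lay below both other L libraries. In bulk leaf RNA, fewer cells of a kind and less RNA per cell cannot be told apart.

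Cluster-17261.25702 had the smallest ratio of L to C, computed on means plus 1. It stood at 222.87, 305.84 and 209.81 FPKM in C, at 63.66, 98.91 and 61.66 FPKM in M and at 0.84, 5.7 and 2.74 FPKM in L. Replicate 2 was the highest library in each group, and no group overlapped the next. The means were 246 ± 52.1, 74.7 ± 21.0 and 3.09 ± 2.45 FPKM (SD, n = 3), so 30.4% of the C level was left in M and 1.26% in L. Its fitted log2 fold changes were -1.72 in M against C and -4.37 in L against M, each ± 0.421 (SE; limma, adjusted p = 0.0238 and 0.000112). The rule used the same values, so the p-values and calls of this cluster describe it and support nothing about it. On means plus 1 it had the largest fall from M to L of all 44; without the added 1 its ratio of M to L was 24.2, and the highest ratio of the 44 was 61.8. Its call in M against C was lost without any one of C replicates 1 to 3, M replicate 1 or M replicate 3, where the log2 fold change ranged from -1.82 to -1.55, and with a pseudocount of 0.1, where it was -1.73.

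Cluster-17261.26669 was the most abundant of the 44 in C and, by its mean, in M. It stood at 934.51, 886.6 and 974.09 FPKM in C, at 178.34, 182.28 and 158.45 FPKM in M and at 15.09, 11.49 and 43.03 FPKM in L. The C and M libraries were tight, with coefficients of variation of 4.70% and 7.38%, whereas L replicate 3 held several times the level of the other L libraries. The means were 932 ± 43.8, 173 ± 12.8 and 23.2 ± 17.3 FPKM (SD, n = 3). Its log2 fold changes were -2.42 in M against C and -3.07 in L against M, each ± 0.392 (SE; limma, adjusted p = 0.00459 and 0.000395). These p-values, too, only describe a cluster chosen on the same values. In C this cluster alone made up 14.9% to 17.1% of the FPKM of the 44, in M 9.41% to 11.4% and in L 4.59% to 11.2%.

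Other clusters are given by their place among the 44, without identifiers. The lowest C mean, 14.5 ± 1.07 FPKM, belonged to a cluster at 13.46, 14.44 and 15.59 FPKM in C. It held 4.12, 4.63 and 4.2 FPKM in M and 0.11, 0.05 and 0.47 FPKM in L, close together in C and M and near 0 in L. The lowest L mean, 0.0967 ± 0.085 FPKM, was that of a cluster at 19.18, 25.63 and 22.82 FPKM in C, 7.68, 3.06 and 7.18 in M and 0, 0.13 and 0.16 in L. The third smallest ratio of L to C came from a cluster with tight values of 63.9, 61.85 and 59.63 FPKM in C. It stood at 16.65, 17.44 and 13.21 FPKM in M and at 0.79, 0 and 0.51 FPKM in L.

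At the other end, the cluster with the largest ratio of L to C, again on means plus 1, held 45.37, 39.35 and 40.94 FPKM in C, 17.08, 18.04 and 18.35 in M and 5, 5.21 and 5.77 in L. Its L values varied little, with a coefficient of variation of 7.47%, and 12.7% of the C level remained. The highest L mean, 34.5 ± 13.8 FPKM, belonged to a cluster at 468.57, 554.46 and 504.04 FPKM in C. This cluster stood at 183.55, 132.72 and 197.95 FPKM in M and at 35.98, 19.92 and 47.49 FPKM in L.

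The fall from C to M was similar across the 44 clusters, and the fall from M to L varied more. Computed on means plus 1, the fall from C to M ran from 1.19 to 2.66 (log2) with a median of 1.75 and quartiles of 1.54 and 1.91. The fall from M to L ran from 1.46 to 4.21 with a median of 2.19 and quartiles of 1.93 and 2.44. The fall from C to M was at least 2 on this scale in 7 clusters, and that from M to L in 30. The whole fall from C to L reached 4 (log2) in 20 clusters and 5 in 6 clusters.

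The largest fall from C to M was that of a cluster at 38.63, 62.59 and 31.22 FPKM in C and 3.98, 9.36 and 5.03 FPKM in M, with 0.38, 0.4 and 0.24 FPKM in L. The cluster whose fall from C to M most exceeded that from M to L held 69.69, 70.12 and 77.91 FPKM in C. It dropped to 11.33, 12.61 and 10.01 FPKM in M and to 1.83, 3.19 and 1.19 FPKM in L. The most even pair of falls, 1.48 and 1.46 (log2), was that of the cluster closest inside the M-to-L limit.

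As deposited, the fall from M to L was the larger in 37 clusters and the smaller in 7, and 12 clusters had falls within 0.25 of each other. This balance depended on scaling and on the constant added before the logarithm. The larger fall was from M to L in 10 clusters after scaling to equal medians, in 21 after quantile normalization and in 22 after upper quartile scaling. With 5 FPKM added in place of 1 it was from M to L in 17 clusters, and with 0.1 FPKM added in 42. The median of all 35314 clusters tested was itself -0.55 in L against M and -0.03 in M against C. Relative to these medians, the 44 clusters lay at -1.75 in M against C and -1.71 in L against M, and each fall was the larger in 22 of them.

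**Figure D2:**
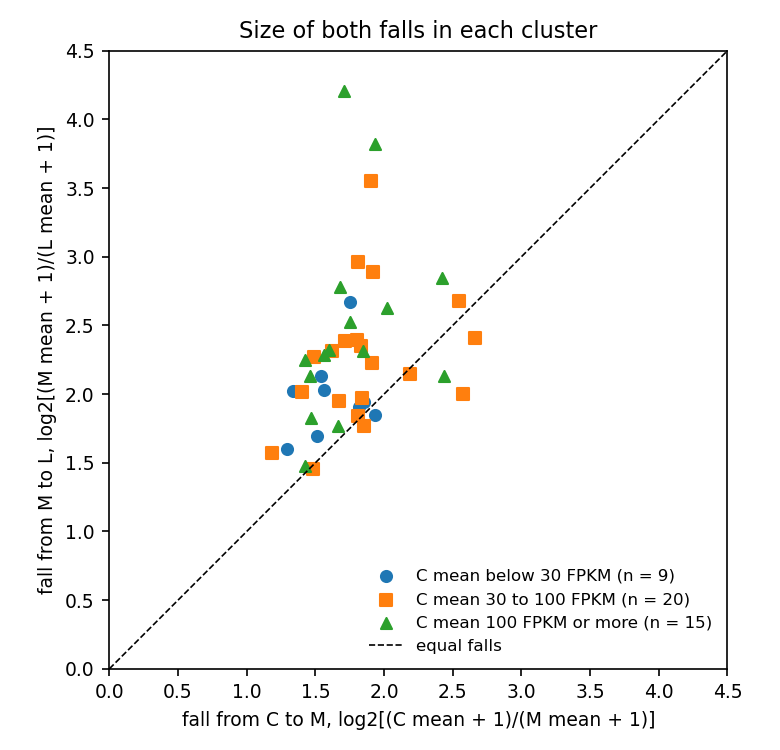
Fall from C to M (horizontal axis) against fall from M to L (vertical axis) for each of the 44 clusters, both as log2 ratios of group means plus 1 in FPKM as deposited; symbols mark 3 classes of C mean and the dashed line marks equal falls. As deposited 37 of 44 points lie above the line, against 10 after scaling to equal medians, and the falls from M to L spread further, up to 4.21, than those from C to M, up to 2.66.

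On means plus 1, the median falls were similar in clusters of different abundance in C. The 9 clusters with a C mean below 30 FPKM had median falls of 1.57 from C to M and 1.94 from M to L. The 20 clusters between 30 and 100 FPKM had medians of 1.82 and 2.25, and the 15 clusters at 100 FPKM or more had medians of 1.68 and 2.31. Adding 1 before the logarithm compresses falls that end near 0, as those of the least abundant class did, with a median L mean of 0.583 FPKM against 11.7 FPKM in the most abundant class. The median M means of these classes were 4.96 and 62.2 FPKM. By these levels, without the added 1, the least abundant class fell further from M to L, so the similarity belongs to the scale used.

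All 44 clusters passed the filter on low values and were fitted with the rest of the table. Because the rule used the same values, the calls that follow describe the 44 clusters and support nothing about them. In M against C, 43 of the 44 were called lower, beside 4.71% of all clusters tested (called by limma at 2-fold or more with an adjusted p under 0.05). In L against M all 44 were called lower, beside 25.7%, and in L against C all 44, beside 30.5%. The median log2 fold changes were -1.78, -2.26 and -3.95, against medians of -0.03, -0.55 and -0.56 over all clusters tested. M against C and L against C share the C libraries, and M against C and L against M share the M libraries. The standard errors ran from 0.131 to 0.502.

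The cluster not called in M against C stood at 329.93, 411.32 and 345.6 FPKM in C and 133.35, 118.58 and 151.8 FPKM in M, without overlap. Its log2 fold change was -1.42 ± 0.502, the largest standard error of the 44 (limma, adjusted p = 0.0832). The fit shares 1 spread over the 3 groups, and this cluster's L values were 32.19, 7.77 and 42.79 FPKM. Without L replicate 2 all 44 were called.

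The place of a cluster in the ranking of its own library does not depend on any scaling factor. By this measure the median of the 44 clusters lay at percentiles 94.8, 94.5 and 94.2 of tested clusters in C replicates 1 to 3. It lay at percentiles 78.3, 79.4 and 77.7 in M and at 47.2, 54.3 and 53.1 in L. In every one of the 44 clusters each C library ranked above each M library, and each M library above each L library. The rule asked for 2-fold gaps between these same libraries and so left little room for another order. The share of other clusters with this rank order was not computed. All C libraries placed 28 clusters at percentile 90 or higher, while all L libraries placed 19 clusters in the lower 50% of tested clusters. Over the 9552 clusters at the same C level, the median percentiles by group mean were 85.4 in C, 84.1 in M and 81.4 in L. Their quartiles were 78.3 and 92.5 in C and 69.4 and 91.0 in L. The shares of these 9552 clusters meeting the same percentile limits in every C or every L library were not computed.

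**Figure D3:**
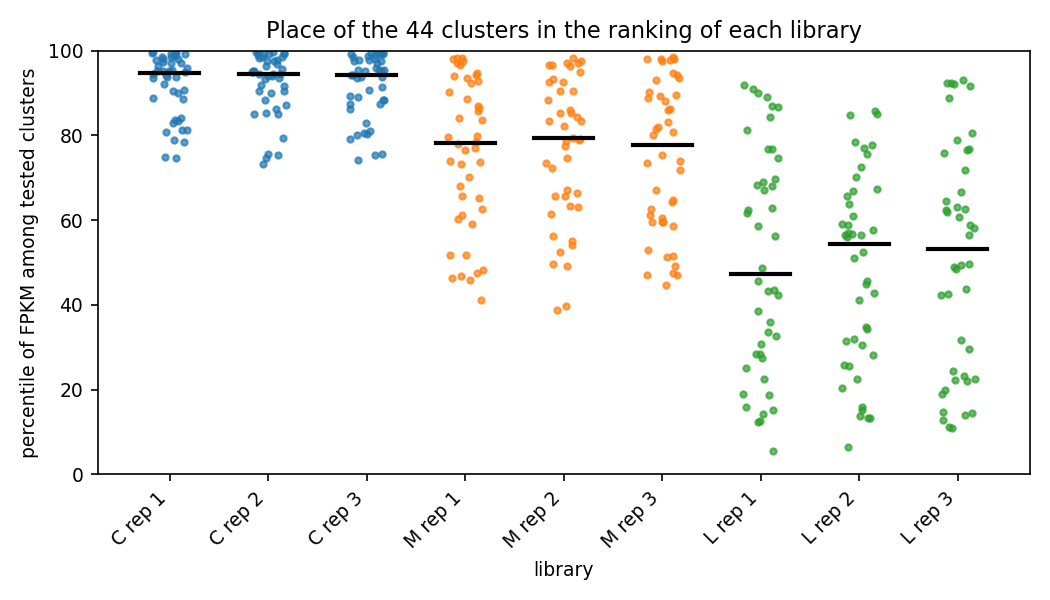
Percentile of each of the 44 clusters among the 35314 tested clusters (vertical axis) in each of the 9 libraries (horizontal axis); points are clusters, with random sideways spread, and bars are medians. The medians lie between 94.2 and 94.8 in C, between 77.7 and 79.4 in M and between 47.2 and 54.3 in L.

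The order of the groups held in each of the 44 clusters under every scaling tried. The 2-fold gaps of the rule left little room for another outcome, and the share of other clusters was not computed. Membership under the 2-fold rule did not hold. After scaling to equal medians 14 clusters met the rule, 12 of them among the 44. Quantile normalization gave 27 clusters with 22 shared, and upper quartile scaling gave 21 with 19 shared. Of the 44 clusters, 10 met the rule under all 3 scalings and 18 under none of them. The step from M to L is the one that these scalings shorten, since its median over the 44 clusters moved from -2.26 as deposited to -1.51, -1.77 and -1.80, while that from C to M stayed between -1.86 and -1.76.

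Among the other orders of the groups under the same rule, the reverse was the most frequent. With the groups exchanged, 108 clusters stood lowest in C and highest in L, 3 were ordered M above C above L and 3 were ordered M above L above C. The rule found no cluster with M lowest. Clusters in this reverse order numbered 194 after scaling to equal medians, 135 after quantile normalization and 170 after upper quartile scaling, so the excess of the reverse order held in direction under each.

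All 44 clusters carry the parent number 17261 in their identifier, as do 69.8% of the clusters in the table and 9544 of the 9552 at the same C level; the share among the 44 is that of clusters at this level.

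Clusters were also selected by the same rule on 2 libraries of each group and then examined in the 3 libraries left out. All 27 combinations of 1 C, 1 M and 1 L library were left out in turn, which selected between 67 and 165 clusters. A median of 61.9% of the selected clusters showed both 2-fold steps again in the libraries left out (range 41.3% to 83.3%). Among all clusters at the same C level the median was 3.73% (range 2.93% to 4.69%). The mere order of C above M above L was kept by a median of 94.4% of the selected clusters, against 48.9% of those at the same C level. The combinations overlap in their libraries and are no independent trials, so no p-value is attached.

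The step from M to L was kept more often than that from C to M, with medians of 84.9% and 70.4% of selected clusters. These stand beside 32.1% and 8.93% among all clusters at the same C level. The result varied with the C and with the M library left out. With C replicate 2 left out both steps were kept by 41.3% to 57.8%, with C replicate 1 left out by 57.7% to 83.3% and with C replicate 3 left out by 56.9% to 79.1%. With M replicates 1, 2 and 3 left out the ranges were 51.3% to 83.3%, 41.3% to 67.8% and 49.3% to 65.9%. With L replicates 1, 2 and 3 left out they were 41.3% to 74.4%, 45.1% to 83.3% and 41.8% to 73.7%.

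**Figure D4:**
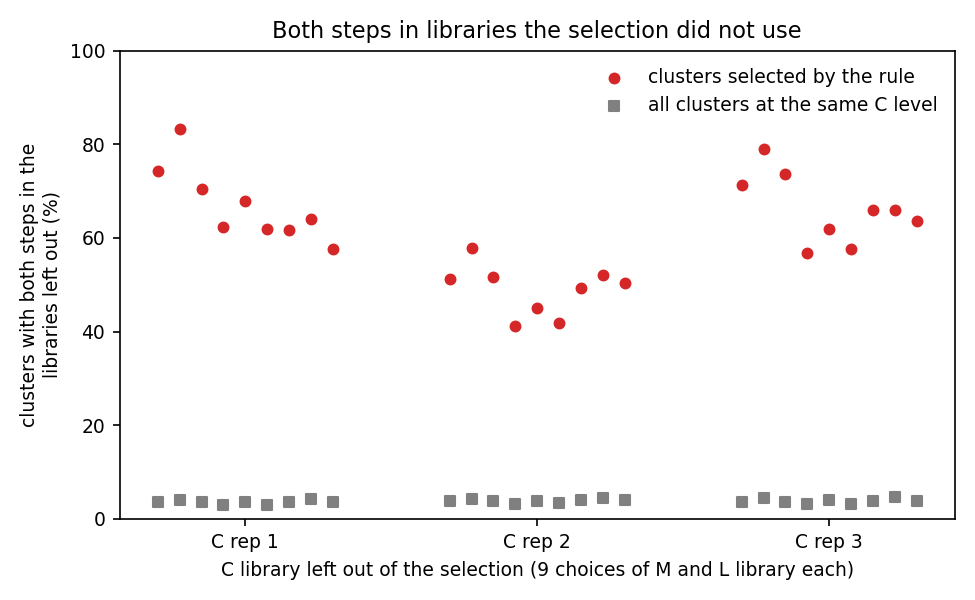
Share of clusters showing both 2-fold steps (vertical axis, percent) in 3 libraries left out of the selection, for clusters selected by the rule on the other libraries (circles) and for all clusters at the same C level (squares), grouped by the C library left out (horizontal axis). The circles lie between 41.3% and 83.3% and the squares between 2.93% and 4.69%. The circles include the 44 clusters, which keep both steps by construction.

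Replicates of the 44 clusters were about as tight as those of other clusters in C, more spread in M and most spread in L. The median coefficient of variation was 15.0% in C, 17.1% in M and 43.6% in L, against 15.4%, 11.9% and 19.1% among the clusters at the same C level. The 44 clusters rank lower in L than most of these, and their median rank in M was lower too. The spreads in M and L were therefore not compared at equal level.

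L replicate 2 was the lowest L library in 27 of the 44 clusters and in 12 of the 15 with a C mean of 100 FPKM or more. In those 15 its log2 ratio to the mean of the other L libraries had a median of -1.08. In 10 of the 15 clusters L replicate 2 was at or below 0.5 times that mean. Among 6198 clusters at the same C level whose L means lay in the same range, from 3.01 to 34.5 FPKM, L replicate 2 was lowest in 47.4%. Its median log2 ratio there was -0.10, and 9.76% were at or below 0.5 times the mean. An example is a cluster at 410.43, 576.86 and 436.31 FPKM in C and 159.51, 117.46 and 164.55 FPKM in M, with 22.98, 10.81 and 27.94 FPKM in L.

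M replicate 2 and L replicate 2 were both the lowest of their groups in 8 of these 15 clusters, and in 15.2% of the clusters with the same C level and range of L means. The labels do not say whether replicate numbers pair the libraries, so no link between M replicate 2 and L replicate 2 is drawn. This comparison was chosen after the values were seen and has no test. Without L replicate 2 the rule gave 47 clusters and the median log2 fold change in L against M was -2.00.

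**Figure D5:**
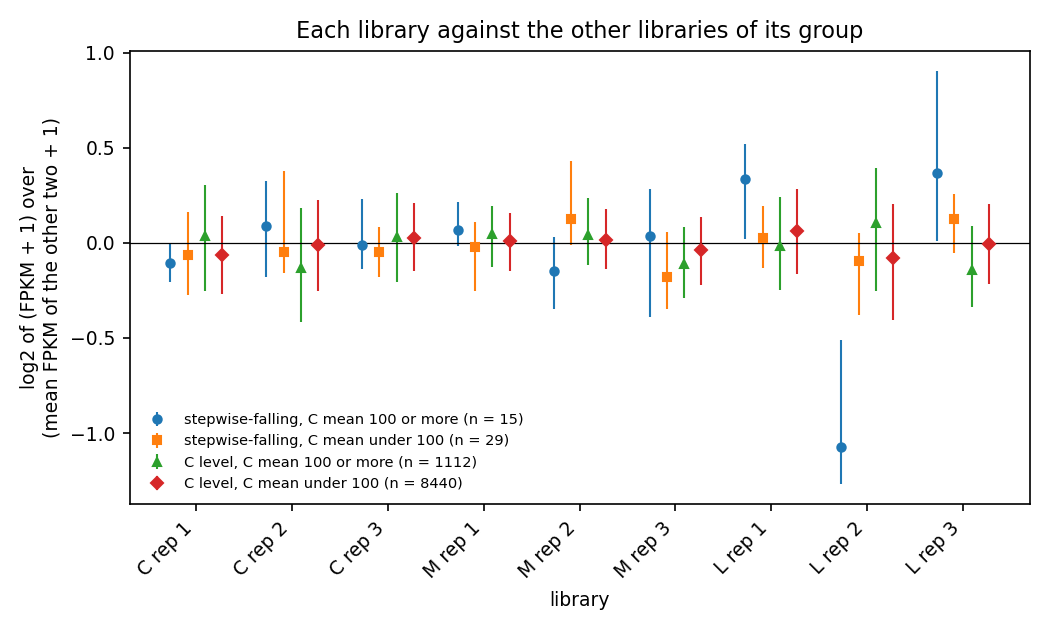
Median log2 ratio of each library to the mean of the other libraries of its group (vertical axis, 1 FPKM added; bars are quartiles) for the 44 clusters and for all clusters at the same C level, each split at a C mean of 100 FPKM; the latter include the 44. L replicate 2 stands apart at -1.08 in the 15 abundant stepwise-falling clusters, against 0.10 in the 1112 abundant clusters at the same C level. Those 1112 were not matched on their level in L. In the 6198 clusters at the C level of the rule with L means in the range of the 15 (not drawn), L replicate 2 lay at -0.10.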

How the data were processed

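RNA from 9 leaf libraries was sequenced on an Illumina instrument. The authors' deposited table gives FPKM per cluster and library, named so per the file headers and rounded to 2 decimals. The sources used here name no aligner, assembler or counting tool, and the animal tissue and mouse build in the labels cannot describe this plant and were not used. No genome or annotation was used, no identifier was matched to a gene and no gene list could be run.

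The rule was applied to FPKM as deposited. For fold changes, the 35314 clusters reaching 1 FPKM in 3 or more libraries were transformed to log2(FPKM + 1). They were fitted with limma 3.58.1 (R 4.3.3), an intensity trend, a common spread for the 3 groups (6 residual, 2.88 prior degrees of freedom) and Benjamini-Hochberg adjustment. This scale understates changes of low clusters. Depth is unknown, so no counting interval is given. The p-values measure the spread between libraries, which may be technical. Fit and rule were run on simulated data as a check of the code. The falls planted for the rule lay clear of its thresholds, and those planted for the fit were in abundant clusters only. Recovery near the rule's thresholds, and recovery by the fit in less abundant clusters, were not measured. Python 3.11.15 with pandas 2.3.3 was used for the other steps.

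The members, tests and alternatives were chosen with earlier results of these data known. Named clusters are the one with the smallest ratio of L to C and the one with the highest C mean; others were picked as the extremes of a listed measure or as examples. No 2 libraries held identical values. Alternatives covered scaling, pseudocount, filter, thresholds, single libraries and the replicate number as a block.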

Additional observations from a re-analysis of the deposited data

How the results depend on the processing

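The number of clusters meeting the rule was 44 as reported. It was 14 with median scaling, 27 with quantile normalization, 21 with upper quartile scaling, 205 with steps of 1.5-fold, 4 with steps of 3-fold, 88 with no constant added and 13 with 5 FPKM added, and 47 to 88 with a library left out (88 without M replicate 2, 83 without C replicate 2). Of the 44 clusters, 37 had the larger fall from M to L, against 42 with a pseudocount of 0.1 and 17 with a pseudocount of 5. The count was 10 with median scaling, 21 with quantile normalization and 22 with upper quartile scaling. These alternatives were added after the data were seen. The share of selected clusters keeping both steps in left-out libraries, the 44 clusters included, ran from 41.3% to 83.3%.

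Clusters called lower by limma numbered 1662 in M against C, 9068 in L against M and 10780 in L against C. A pseudocount of 5 gave 654, 3462 and 4803. A filter of 5 FPKM gave 997 in M against C. For L against M and L against C, median scaling gave 3771 and 5133 and quantile normalization 4667 and 6432. With a library left out the counts ran from 893 (without C replicate 1) to 1917, from 7956 to 9408 and from 9701 to 10646. In M against C they were 959 without C replicate 3, 1050 without M replicate 1 and 1071 without M replicate 3. Of the 44 clusters 43 were called in M against C as reported and 40 to 44 with a library left out, and 44 in both other comparisons with each library left out. In L against M, 37 of the 44 were called with median scaling, 37 with a pseudocount of 5 and 42 with quantile normalization. A pseudocount of 0.1 left 39 called in M against C.

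The median log2 fold change of the 44 was, for M against C, -1.51 (pseudocount 5), -1.86 (quantile normalization) and -1.79 to -1.71 with a library left out. In L against M it was -2.69 with a pseudocount of 0.1, -1.38 with 5, -1.51 with median scaling, -1.77 with quantile normalization and -2.29 to -2.00 with a library left out. In L against C these were -4.60, -3.00, -3.30, -3.67 and -4.15 to -3.73. The causes of these shifts were not tested.

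Same-numbered replicates did not deviate together: the correlations of their deviations ran from -0.06 to 0.03 over 9 pairs, none above 0.1. With the replicate block 1489, 8869 and 10726 clusters were called lower, with 42, 44 and 44 of the 44, and the medians did not move.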
